A study of Mus musculus with 2 samples.

Results

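Cycling coronary capillary endothelial cells are the dividing cells among the small-vessel endothelium found in preparations of mouse mitral leaflets at E17.5. They were chosen cell by cell from their UMIs, the molecule counts of droplet sequencing. Barcodes had to reach 500 genes and 1000 UMIs, of which less than 20% could be mitochondrial. It was called endothelial with at least 3 UMIs of Pecam1, Cdh5 and Egfl7 together, and cycling with at least 2 UMIs of Mki67 and Top2a together. It was called capillary when Gpihbp1, Fabp4, Aplnr and Cd36 summed to at least 5 UMIs and to more than each of 5 other marker sums, for arterial, lymphatic, Vwf/Procr and 2 kinds of valve endothelial cells. The rule found 1577 of 17162 kept cells, 756 of 10759 in the control and 821 of 6403 in the mutant library.

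The series holds 1 library from wild-type embryos (control) and 1 from embryos labelled Nfatc1-Cre, Dicer loxp/loxp (mutant), each pooled from 3 to 4 hearts. The leaflets were freed with 0.05% trypsin, cells that took up 7-AAD, a dye of dead cells, were sorted out, and 3′ ends were sequenced. Nfatc1-Cre is driven by a gene of the endocardium and valve endothelium, how many capillary cells had recombined was not measured, and DICER1 cuts microRNA precursors to their mature form. With 1 library per genotype there is no test between genotypes: genotype, pool, library preparation and, in part, embryo sex cannot be told apart, and every interval given (95%, exact Poisson or Clopper-Pearson) covers counting error only.

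Coronary capillaries of the late fetal heart grow by division of endothelial cells along existing vessels. GPIHBP1 anchors lipoprotein lipase on the capillary wall, and FABP4 and CD36 carry fatty acids. In a dividing cell the D-type and E-type cyclins act before and at entry into S phase, when DNA is copied. Cyclins A and B with CDK1 then drive G2 and mitosis, and the anaphase-promoting complex with its activator CDC20 and the enzyme UBE2C ends them. Many mitotic genes are switched on late in the cycle through a short promoter element, the cell cycle genes homology region (CHR), bound by the MuvB complex with B-MYB and FOXM1.

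The libraries held 70221728 and 69475632 UMIs over 12793 and 8250 barcodes, with a median of 5774 UMIs per kept control cell and 9620 per kept mutant cell. Among kept cells 93.6% of the control were female-type (a UMI of Xist and none of 4 Y-linked genes) and 1 cell was male-type, against 42.4% female-type and 36.6% male-type in the mutant library. The libraries shared 19 barcodes, 11 of them kept in both, and no barcode was a member in both. Of the members, 743 of 756 in the control were female-type, and in the mutant 340 were female-type and 292 male-type. Members were deeper than the capillary cells without a cycling UMI: the median was 6756 against 4778 UMIs in the control and 10565 against 7103.5 in the mutant library. With each cell thinned to 3000 UMIs the median number of genes was 1508 in members and 1461 in non-cycling cells of the control, and 1531 and 1473 in the mutant library.

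The promoters of the mitotic genes are shown first, since these genes set the members apart together. Sequences are from RefSeq on GRCm38.p6, from 250 bases before to 50 bases after a start, and 49 of the 57 genes of the G2/M list with Mki67, Top2a and cyclins A2, B1 and B2 were matched. The CHR letters TTTGAA, on either strand, were found in 36 of these 49 genes (73.5%), against 20.2% of all 27025 genes in the table and 15.1% of the 2603 matched genes with a mean level of at least 50 CPM in the members. Within 50 bases of a start they were found in 29 of 49 genes (59.2%), against 5.72% of all genes. CCAAT, on either strand, was found in 75.5% of the G2/M genes, 64.9% of 37 matched S-phase genes and 41.1% of all genes. The E2F letters TTTGGCGC or TTTCGCGC, on either strand, were found in 27.0% of the S-phase genes, 4.08% of the G2/M genes and 0.929% of all genes. By promoter, the shares over all 32851 windows of this length were 17.9% for the CHR letters, 37.4% for CCAAT and 0.813% for E2F. None of these motifs contains another. Of 14 matched capillary genes, 2 held the CHR letters. In the windows below, read on the strand of the gene, capitals mark the CHR letters (TTCAAA is the same element on the other strand).
Mki67, chr7:135716460-135716489, minus strand: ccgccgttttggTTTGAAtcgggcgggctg
Top2a, chr11:99024195-99024224, minus strand: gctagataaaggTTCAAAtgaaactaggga
Ube2c, chr2:164769888-164769917, plus strand: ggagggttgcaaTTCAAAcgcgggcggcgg
Cdc20, chr4:118437344-118437373, minus strand: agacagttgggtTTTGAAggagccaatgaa
Cdk1, chr10:69352910-69352939, minus strand: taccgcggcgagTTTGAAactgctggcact
Kif11, chr19:37376351-37376380, plus strand: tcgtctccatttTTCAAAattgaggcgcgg
Counted from the start, the element's first base lay at -98 in Mki67, -23 in Top2a, -29 in Ube2c, -18 in Cdc20, -15 in Cdk1 and -19 in Kif11. A match is a description of the letters, not of binding.

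The markers are given as a description of the label, since the rule used Mki67, Top2a, Fabp4 and Gpihbp1 themselves. Mki67, a protein of the surface of mitotic chromosomes, stood at 571 CPM (UMIs of a gene per 1000000 UMIs of the cell group; 551 to 591) in the control and 522 (508 to 537) in the mutant members, and Top2a at 636 and 625. Birc5, the survivin subunit of the chromosomal passenger complex, stood at 499.5 and 426 CPM, against 30.1 and 26.2 in the non-cycling capillary cells. Cenpe, a kinetochore motor, stood at 270.4 and 247 against 13.5 and 8.80, and Ube2c at 448 and 456 against 19.2 and 14.8. Birc5, Cenpe and Ube2c were not in the rule but follow the cycling UMIs that chose the cells, so none of these levels tests the label. Of the capillary genes in the rule, Fabp4 stood at 9298 and 9288 CPM and Gpihbp1 at 711 and 752, against 42.9 and 41.3, and 2.35 and 3.07, in cycling stromal cells.

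Markers of other cell types were low on the whole but present in some members. At least 5 UMIs of the 7 stromal markers were held by 13.0% of the control and 21.1% of the mutant members, and of the 7 cardiomyocyte markers by 8.73% and 18.9%. Mutant members are deeper, so shares at a fixed cut of 5 UMIs do not compare the libraries. The median level per cell was 197.4 and 219.9 CPM for the stromal and 238.7 and 239.4 CPM for the cardiomyocyte markers. The summed cardiomyocyte level was 671 and 817 CPM. The summed stromal level was 1584 and 1834 CPM in the members, against 18990 CPM in the control stromal cells, and none of these markers was at 0. At least 5 UMIs of a mural list were held by 3.57% and 6.94%, of an erythroid list by 0.397% and 1.22%, and of the lymphatic, macrophage, leukocyte, epicardial and melanocyte lists by under 1% each. Doublets were called by Scrublet in 8.47% and 8.77% of the members, against 6.43% and 5.02% of the non-cycling cells. Members with at least 5 UMIs of any non-endothelial list numbered 151 (19.97%) and 279 (34.0%), and these are the cells meant below by markers of another cell type. Endothelial lists are not part of that count. At least 5 UMIs of the arterial list were held by 13.2% and 27.5% of the members, and of the venous list by 5.82% and 15.2%.

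The share of capillary cells in cycle addresses how many of them divided in each library. As deposited, 756 of 2344 capillary cells (32.3%, 30.4 to 34.2) were cycling in the control and 821 of 2087 (39.3%, 37.2 to 41.5) in the mutant library. Thinned to 3000 UMIs per cell, the share was 26.3% (24.2 to 28.4) and 27.5% (25.4 to 29.7), means of 10 draws, with 363 control and 189 mutant capillary cells too shallow to enter. At 5000 UMIs it was 35.9% in the control and 34.1% in the mutant library, with 1025 and 455 cells left out. The gap of 7.09 percentage points at the deposited depth thus became 1.24 and -1.79 points at matched depths, where the intervals overlap. These mutant shares pool female-type and male-type cells, while 2228 of 2344 control capillary cells were female-type. Female-type mutant cells stood above the control at 3000 and 5000 UMIs, at 31.6% (28.1 to 35.2) and 37.75% (34.0 to 41.7), with overlapping intervals. Male-type mutant cells stood below it, at 25.3% and 31.5%. The whole mutant library is deeper, so the deposited shares are not read as an order.

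**Figure D1:**
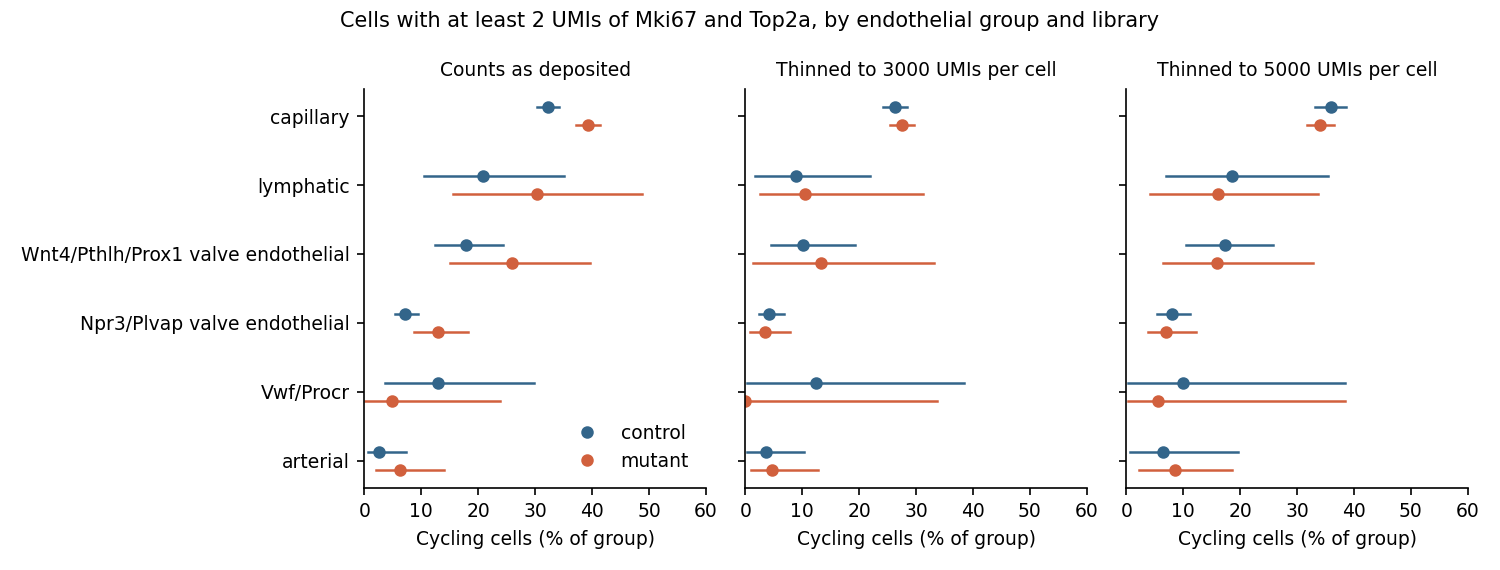
Share of cells with at least 2 UMIs of Mki67 and Top2a (x axis, percent of the group) in 6 endothelial groups (y axis), control in blue and mutant in orange, as deposited and with each cell thinned to 3000 or 5000 UMIs (means of 10 draws). Points are shares and lines 95% Clopper-Pearson intervals of counting error; capillary cells had 32.3% and 39.3% as deposited and 26.3% and 27.5% at 3000 UMIs.

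Capillary cells had the highest cycling share of the 6 endothelial groups at each depth in both libraries. At 3000 UMIs the next share was 12.5% (0.211 to 38.5) of Vwf/Procr cells in the control and 13.3% (1.30 to 33.1) of Wnt4/Pthlh/Prox1 valve endothelial cells in the mutant library, and these intervals, from few cells, reach past the capillary share. Npr3/Plvap valve endothelial cells stood at 4.09% and 3.50%, and arterial cells at 3.57% and 4.66%. Of all endothelial cells in cycle, the members made up 84.1% (81.5 to 86.4) in the control and 90.1% (88.0 to 92.0) in the mutant library. Among mutant capillary cells at 3000 UMIs, 31.6% (28.1 to 35.2) of the female-type ones cycled and 25.3% (22.1 to 28.8) of the male-type ones.

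The cut at 2 UMIs runs through a gradual change. Capillary cells with 0, 1, 2 and 3 UMIs of Mki67 and Top2a numbered 1322, 266, 139 and 83 in the control and 1036, 230, 126 and 80 in the mutant library. The summed G2/M list, which leaves out both genes, stood in these 4 steps at 1716, 3199, 5989 and 7485 CPM in the control and at 1588, 2474, 4085 and 5945 in the mutant library. At 4 or more UMIs it reached 12722 and 12152 CPM. The other limits touched few cells: 3 control and 4 mutant cells had a capillary sum of 4 UMIs and 4 and 4 a sum of 5, while 10 and 5 cells had an endothelial sum of 2 UMIs and 8 and 11 a sum of 3. Cells just inside the Mki67 and Top2a cut lay between the non-cycling cells and the bulk of the members.

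Cells were grouped by the balance of 2 lists, 50 S-phase genes and 52 G2/M genes, both without Mki67, Top2a and the cyclins. A cell was called S-led when the G2/M list gave less than 0.333 of these UMIs and G2/M-led when it gave more than 0.667. In the control 38 members (5.03%, 3.58 to 6.83) were S-led, 272 (36.0%) mixed and 446 (59.0%, 55.4 to 62.5) G2/M-led. In the mutant library the numbers were 36 (4.39%, 3.09 to 6.02), 289 (35.2%) and 496 (60.4%, 57.0 to 63.8). The make-up thus differed by less than the counting intervals between the libraries, also at 3000 UMIs, with 59.4% and 60.4% G2/M-led. Cycling stromal cells, chosen with the same 2 cycling genes, held 61.9% and 60.8% G2/M-led cells, and the cycling cells of the other endothelial groups 63.3% and 63.2%.

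**Figure D2:**
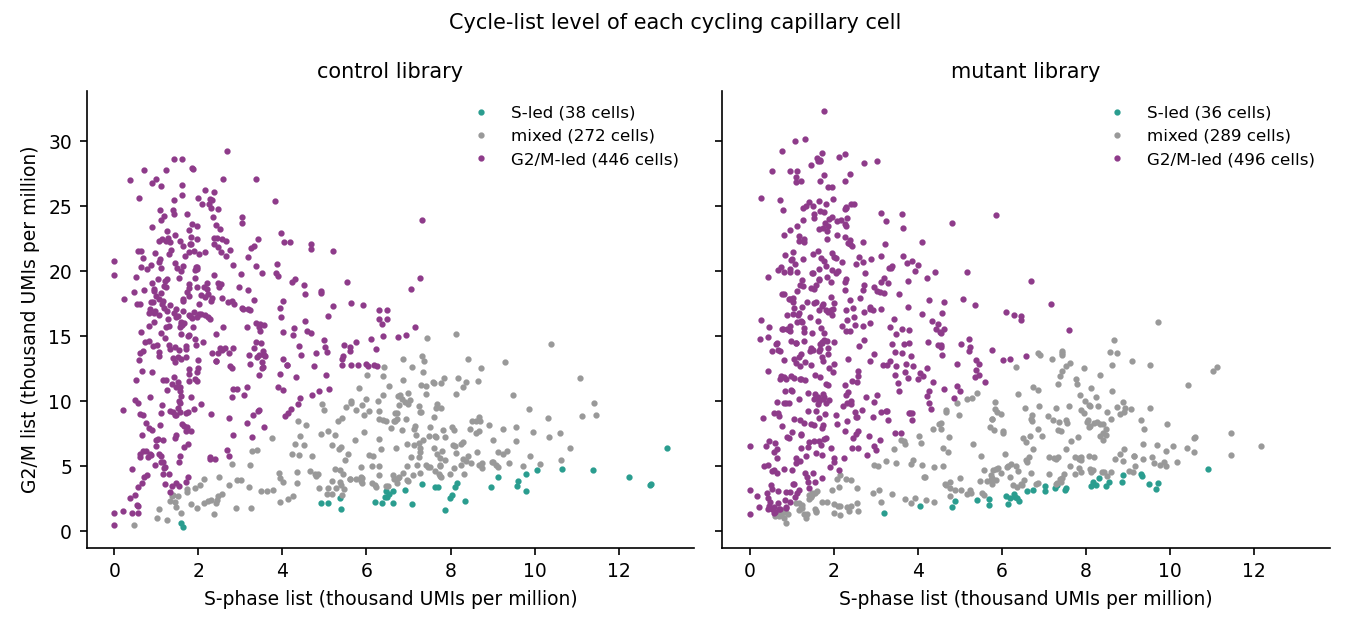
Level of the S-phase list (x axis) and of the G2/M list (y axis), both scaled to the cell's UMIs, for each of the 756 control and 821 mutant members; colours give the phase group. S-led cells (38 and 36) have low G2/M levels for their S-phase level, and G2/M-led cells (446 and 496) are the most numerous in both panels.

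Mki67 and Top2a are themselves highest late in the cycle, so the rule takes up few cells early in it. Among capillary cells without a UMI of either gene, 12.03% in the control (10.3 to 13.9) and 13.7% in the mutant library (11.7 to 16.0) reached the members' median S-phase level. Only 0.756% and 0.869% of them reached the members' median G2/M level. Of cells with 1 UMI, 24.1% and 36.1% reached the S-phase median.

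The cyclins were not used to place the cells, and they differed by phase group. Ccnd1 (cyclin D1) stood at 836 CPM (721 to 964) in S-led, 683.5 in mixed and 563 in G2/M-led control members, and at 714, 537 and 484 in the mutant library. Ccne2 (cyclin E2) stood at 57.5, 75.9 and 10.7 CPM in the control and at 54.6, 81.1 and 6.94 in the mutant library. The mixed cells had the highest value in each library; in the control it lay inside the interval of the S-led cells (30.6 to 98.4), and in the mutant library just outside (35.3 to 80.6). Ccna2 (cyclin A2) stood at 8.85, 93.5 and 238 CPM in the control and at 41.5, 98.4 and 239 in the mutant library. Ccnb1 (cyclin B1) stood at 4.42, 33.7 and 213 CPM in the control and at 6.55, 28.7 and 228 in the mutant library. In both libraries Ccnd1 was thus highest in S-led cells, Ccne2 in mixed cells, and Ccna2 and Ccnb1 in G2/M-led cells. Replication-dependent histones, messages of cells copying DNA, went against the name of the S-led group: their summed level was 279 and 374 CPM there, near the 289 and 274 CPM of non-cycling cells, against 1976 and 1640 in mixed and 1896 and 1649 in G2/M-led members. S-led therefore names the list that leads, not a position in S phase.

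**Figure D3:**
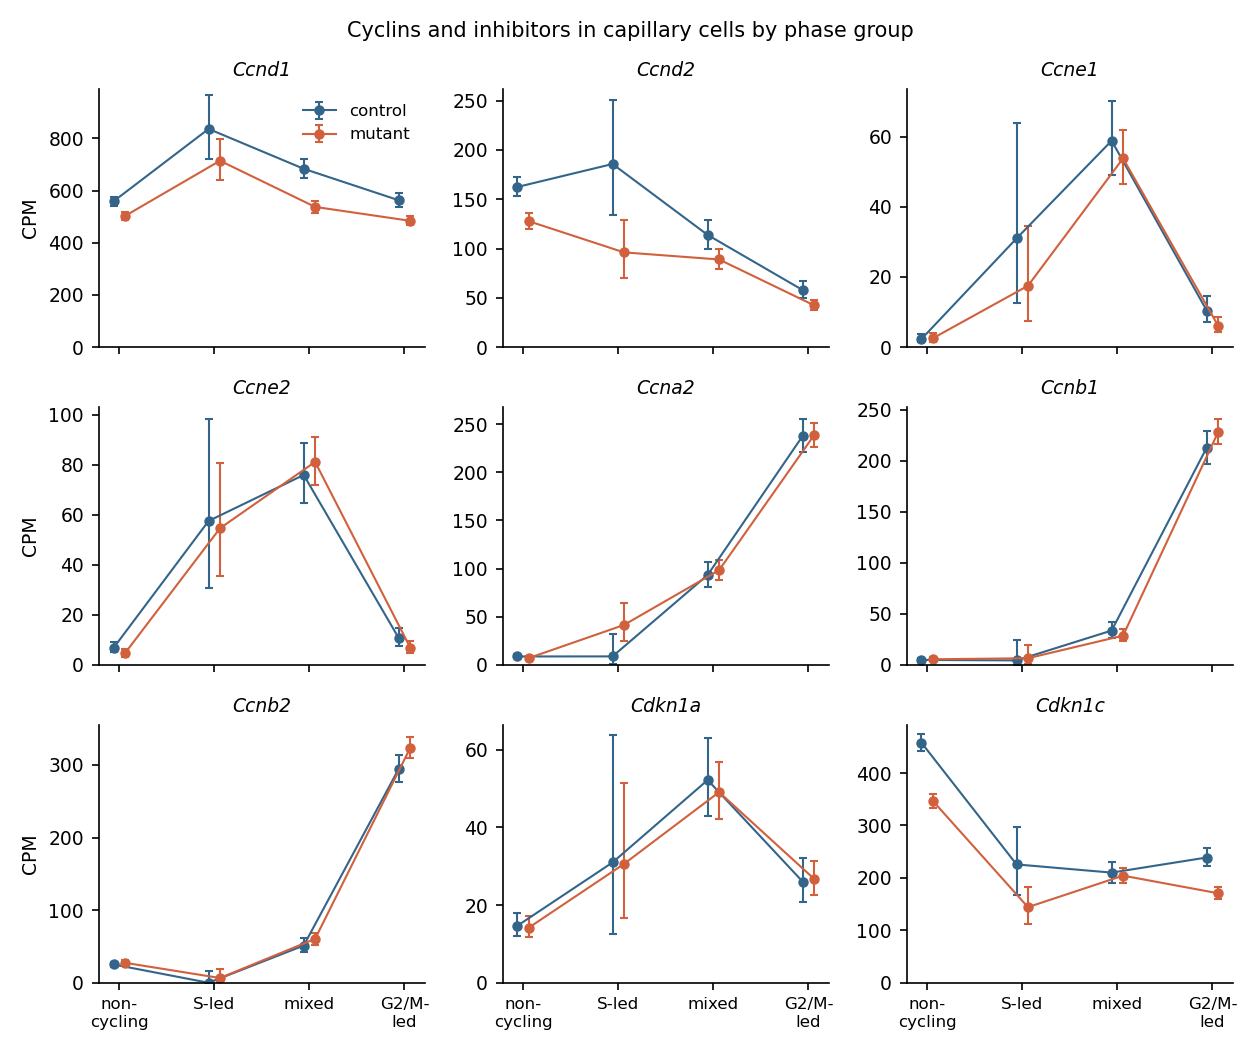
CPM (y axis, from 0) of 7 cyclin genes and 2 CDK inhibitor genes in non-cycling, S-led, mixed and G2/M-led capillary cells, control in blue and mutant in orange; bars are 95% Poisson intervals of counting error. Ccne2 is highest in the mixed cells (75.9 and 81.1 CPM), Ccnb1 in the G2/M-led cells (213 and 228), and Cdkn1c is highest in the non-cycling cells (458 and 347).

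Brakes of the cycle went both ways. Cdkn1c (p57) stood at 228 CPM in members and 458 in non-cycling cells of the control, and at 182 and 347 in the mutant library. Cdkn1a (p21) was the other way round, at 36.1 against 14.7 CPM and 35.1 against 14.2, and highest in mixed members, at 52.2 and 49.1. In cycling stromal cells Cdkn1a stood at 8.77 and 16.3 CPM, and in the cycling cells of the other endothelial groups at 54.8 and 97.1. Cdkn2c (p18) stood at 41.8 against 2.31 CPM and 37.2 against 2.26, and Cdkn2d (p19) at 79.95 against 20.02 and 82.3 against 20.7. Ccnd2 (cyclin D2), a D-type cyclin and not a brake, stood at 84.0 against 162.5 and 61.9 against 128 CPM.

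The whole contrast of members with non-cycling capillary cells was fixed in part by the rule and is given as a description, with no test. Of 3206 genes with a mean of at least 50 CPM, 101 (3.15%) were at least 2-fold higher in members of both libraries, and 70 of these are in the cell cycle lists and 4 are histone genes. At least 2-fold lower in both were 7 genes (0.218%), of which Gja4 and Cxcl12 belong to the rule. At 1.5-fold and a mean of at least 10 CPM, 6.23% of 8301 genes were higher and 1.95% lower in both.

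Machinery of division made up the upper end, beside 6.23% of 8301 genes at least 1.5-fold higher in both libraries. All 51 measured G2/M genes were at least 1.5-fold higher in both libraries (median log2 ratio 4.01 and 4.14), as were 41 of 48 S-phase genes (1.32 and 1.47). All 12 mitotic kinases, 24 of 25 kinetochore genes and 12 of 16 condensin and cohesin genes were also higher in both. Of 15 measured E2F, MYB and FOXM1 genes 8 were higher in both: E2f8 had 4.14 and 3.90, Foxm1 3.04 and 3.63, and Mybl2 (B-MYB) 2.99 and 3.37. Of 18 genes of the anaphase-promoting complex and its activators 6 were higher, among them Cdc20 with 3.72 and 4.18, Fbxo5, an inhibitor of the complex, with 4.26 and 4.47, and Fzr1, an activator, with 1.35 and 1.23. DNA damage response genes had a median of 1.797 and 1.73, with 9 of 12 higher, Brca1 at 3.12 and 3.58 among them.

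Outside the cell cycle lists, histones and rule genes, 15 genes were named as the highest. Pimreg had a log2 ratio of 5.25 and 4.75, the PCNA-binding Pclaf 3.85 and 4.53, Incenp, the scaffold of the chromosomal passenger complex, 3.54 and 4.05, and Lmnb1, a nuclear lamin, 2.24 and 2.39. Dbf4, which activates the kinase that fires replication origins, had 2.19 and 2.58, the histone variant gene H2afz 1.54 and 1.59, Ezh2, a histone methyltransferase, 1.38 and 1.45, and Dek 1.35 and 1.33. The others were Hirip3, Tubb6, Arl6ip1, Nucks1, Cmc2, Ccdc34 and Dnajc9, between 1.495 and 2.31.

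Arterial genes stood lower in the members. Over all 8301 genes with a mean of at least 10 CPM, 6.23% were at least 1.5-fold higher and 1.95% lower in both libraries. The 12 measured arterial genes outside the rule had a median log2 ratio of -0.64 and -0.75, against -0.02 and -0.01 over all genes with a mean of at least 10 CPM, and 6 were at least 1.5-fold lower and 0 higher in both libraries. Hey1, a Notch target, stood at 27.8 CPM in members and 66.7 in non-cycling cells of the control, and at 38.6 and 90.1 in the mutant library, ratios of -1.26 and -1.22. Unc5b, a netrin receptor, had -1.10 and -1.20, the Notch ligands Jag1 -1.05 and -1.27 and Jag2 -0.84 and -0.75, Sox17 -0.62 and -0.77, and Efnb2 -0.65 and -0.79. The arterial markers Gja4, Gja5 and Cxcl12 have to stay below the capillary sum in all these cells, members and non-cycling alike. Tip cell genes had 3 of 14 lower, Cxcr4, the receptor of CXCL12, with -1.73 and -1.90, Igfbp3 with -0.98 and -1.35, and Unc5b.

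Capillary genes differed little between members and non-cycling cells. The counts below stand beside 6.23% of 8301 genes at least 1.5-fold higher and 1.95% lower in both libraries. The 17 measured capillary genes outside the rule had a median of -0.19 and -0.27, with 0 higher and 2 lower, Car4 (-0.95 and -0.91) and the BMP receptor Acvrl1 (-0.60 and -0.74). Rbp7 came close, with -0.57 and -0.56. Venous genes had -0.08 and -0.02 and junction genes -0.17 and -0.25, with 0 of 5 and 0 of 13 past 1.5-fold. Oxidative phosphorylation (0.07 and 0.03) and the unfolded protein response (0.03 and 0.01) had no member past it. Other named lower genes were Mxd4, a MYC antagonist (-1.25 and -1.30), the histone demethylase Kdm5b (-1.41 and -1.02), the transcription factor Mecom (-0.99 and -1.10), Sat1 (-0.98 and -1.31), Ier3 (-0.97 and -1.32), Depp1 (-0.96 and -0.99) and Prnd (-0.93 and -0.98).

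**Figure D4:**
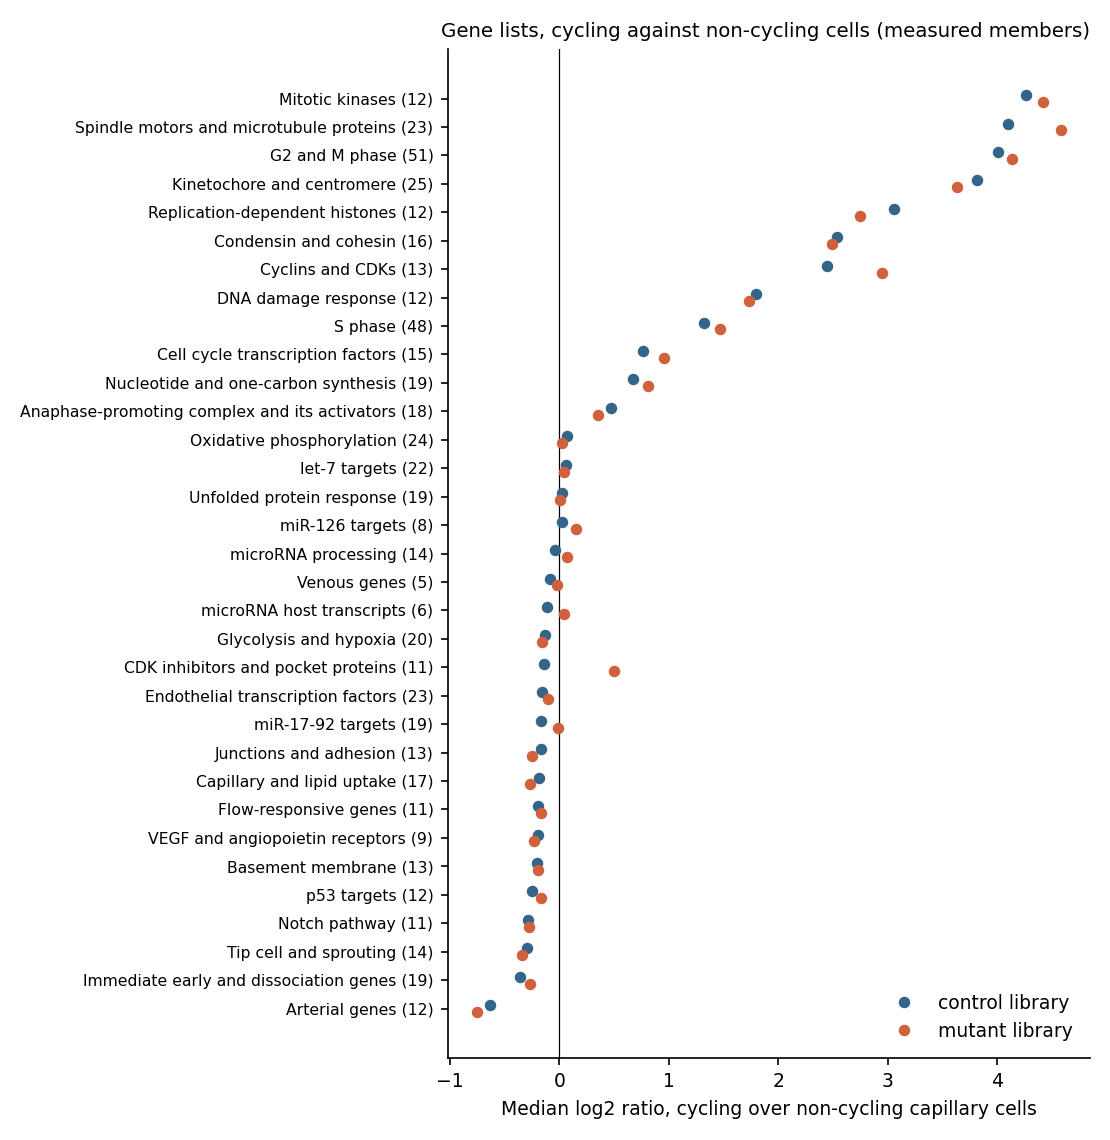
Median log2 ratio of cycling over non-cycling capillary cells (x axis) for each of 33 gene lists (y axis, measured members in brackets), control in blue and mutant in orange. Mitotic lists stand near 4 in both libraries, most endothelial lists just below 0, and arterial genes lowest at -0.64 and -0.75; the CDK inhibitor list has medians of -0.14 and 0.50.

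Comparison of the libraries within the members addresses whether dividing capillary cells differed with the labelled loss of Dicer1. Dicer1 (ENSMUSG00000041415, mm10 chr12:104687742-104751952, minus strand) stood at 77.6 CPM in the control and 61.1 in the mutant members, a log2 ratio of mutant over control of -0.35 (-0.53 to -0.16), and -0.28 in the non-cycling capillary cells. The loxP-flanked part is not given in the sources used here, and 3′ tags outside it check nothing. Nfatc1 stood at 26.4 and 18.9 CPM, a log2 ratio of -0.49 (-0.81 to -0.16). Neither gene reached 1.5-fold. Of 8283 genes with a mean of at least 10 CPM, 83 (1.0%) were at least 1.5-fold higher and 43 (0.519%) lower. Few genes were 2-fold apart. Of 3261 genes with a mean of at least 50 CPM, 1 (0.0307%) was at least 2-fold higher and 3 (0.092%) reached 2-fold in the other direction, against 5 (0.159%) and 4 (0.127%) of 3149 in the non-cycling capillary cells. Within the mutant members, male-type and female-type cells were 2-fold apart either way for 12 of 3292 genes (0.365%).

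The gene past 2-fold was Rsad2 (ENSMUSG00000020641, chr12:26442746-26456452, minus strand), an interferon-induced antiviral gene. It stood at 29.6 CPM in the control and 74.6 in the mutant members, a log2 ratio of 1.33 (1.09 to 1.59), and at 29.4 and 73.0 in the non-cycling cells. It lay apart within the mutant library as well, with male-type over female-type members at 0.95, and between female-type members alone its ratio was 0.91, under 2-fold. The 3 lower genes were S100a8 and S100a9, granulocyte proteins, at 82.6 and 21.6 and at 104 and 23.0 CPM, and the globin gene Hbb-bs, at 199 and 17.0 CPM. They fall outside the rule for named genes and are given because they were counted. The leukocyte list, which holds S100a8, summed to 131 and 45.7 CPM in the control and mutant members. The erythroid list, which holds Hbb-bs, summed to 453 and 50.05 CPM. These sums contain genes already counted and are no separate evidence. Few cells carried them: the 1117 Hbb-bs UMIs of the control lay in 24 of 756 members. At least 5 UMIs of the erythroid list were held by 3 control and 10 mutant members, and of the leukocyte list by 5 and 8. In non-cycling capillary cells the erythroid list went the other way (222.5 and 858 CPM), while S100a8 and S100a9 were lower there too (-2.41 and -0.78). Without members holding at least 5 marker UMIs of another cell type, S100a8, S100a9 and Hbb-bs were no longer counted as 2-fold lower. The lists of that filter hold S100a8 and Hbb-bs themselves, so this outcome was fixed in part in advance and shows nothing further. Whether their level or their ratio fell short there is not given, and the cause was not tested.

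The 11 next highest genes were all under 2-fold. Btg2, an antiproliferative gene (ENSMUSG00000020423, chr1:134075170-134079120, minus strand), stood at 85.7 and 162 CPM, a log2 ratio of 0.92 (0.77 to 1.07), with 0.73 in the non-cycling cells, 1.89 in the cycling cells of the other endothelial groups and 0.93 in cycling stromal cells. Egr1 had 0.55 and Junb 0.52, both immediate early genes. Rbp7, a retinol-binding protein of capillaries, had 0.66 (0.53 to 0.78), with male-type over female-type mutant members at -0.84, and Igfbp7, a secreted vessel protein, had 0.51 with -0.41. Nptn, an adhesion protein, had 0.75 (0.58 to 0.94), Pcdh12, an endothelial protocadherin, 0.60, and Tnrc6a, a partner of Argonaute in microRNA silencing, 0.51 (0.36 to 0.68). Sft2d1 had 0.58, the collagen-modifying Plod2 0.48 and Tmed2 0.47.

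Replication-dependent histone genes were the group among the 12 lowest. Hist2h2ac stood at 71.6 CPM in the control and 45.8 in the mutant members, a log2 ratio of -0.64 (-0.84 to -0.45). Hist1h3c had -0.62 (-0.79 to -0.44), the linker histone gene Hist1h1b -0.54 (-0.62 to -0.45; 364 and 251 CPM) and Hist1h4d -0.47 (-0.65 to -0.29). The lower level was not particular to capillary cells: in cycling stromal cells these 4 genes had -0.74, -1.03, -0.62 and -0.89, and in the cycling cells of the other endothelial groups -0.73, -1.29, -0.85 and -0.84. In non-cycling capillary cells, at only 2.64 to 13.8 CPM, the 4 genes had -0.06, -0.75, -0.57 and -0.44. Of these intervals only that of Hist1h1b (-1.09 to -0.07) left out 0. The median over the histone list was -0.04 in the non-cycling cells. Male-type over female-type mutant members had 0.11, -0.17, -0.06 and -0.07. Over the 15 measured histone genes the median was -0.31, with 0 at least 1.5-fold higher and 2 lower, beside 0.03 over all genes with a mean of at least 10 CPM, of which 1.0% were 1.5-fold higher and 0.519% lower. Between female-type cells this median was -0.16, with Hist1h3c at -0.42 and Hist1h1b at -0.39, and without cells holding at least 5 marker UMIs of another cell type it was -0.18, with Hist2h2ac at -0.42. Hist1h2ap, Hist1h2bc and Hist1h1c went the other way, at 0.13, 0.43 and 0.12. Replication-dependent histone messages mostly lack a poly(A) tail, on which the library kit primes, so these values come from the tailed part, and histone family members can share reads. The other lowest genes were Fam76b (-0.59), Nostrin, which binds the endothelial nitric oxide synthase (-0.51), Chmp2b (-0.49), Wdr89 (-0.46), the centriole gene Cntln (-0.43), Ramac, Eif1ad and Chchd7 (-0.38 each).

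**Figure D5:**
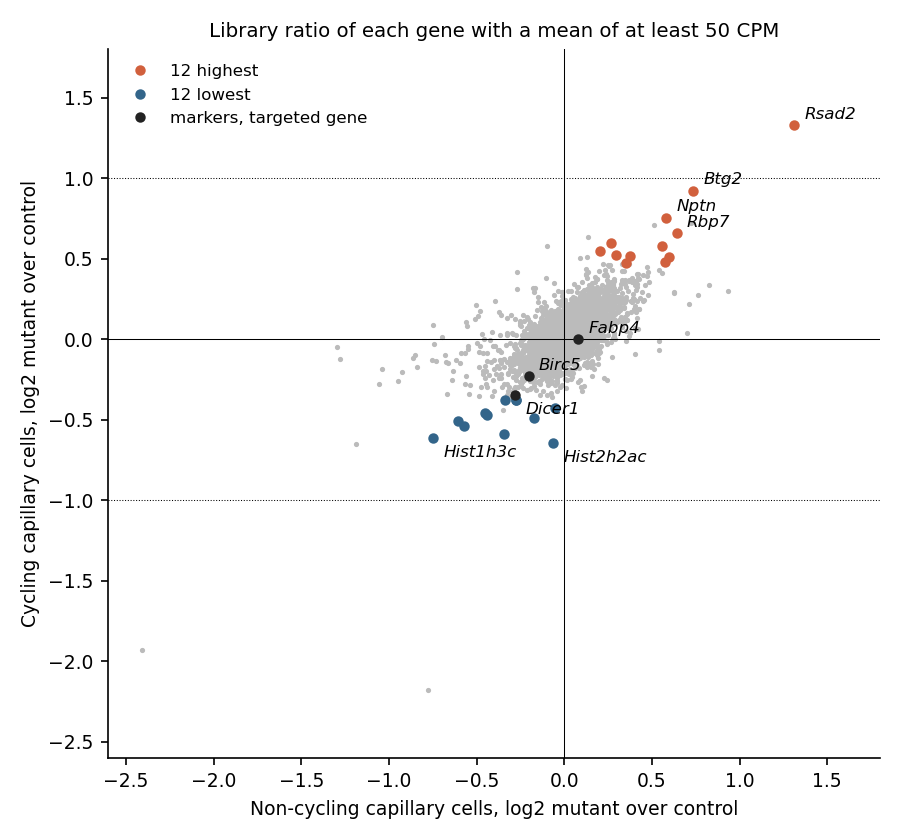
Log2 ratio of mutant over control for each of 3120 genes with a mean of at least 50 CPM outside the erythroid, mitochondrial, ribosomal, sex-linked and unnamed ones, in non-cycling (x axis) and cycling (y axis) capillary cells; dotted lines mark 2-fold. Rsad2 (1.31 and 1.33) stands past 2-fold in both, and the 12 highest genes (orange) are above 0 in both. Hist2h2ac (-0.06 and -0.64) is lower in cycling cells, while Hist1h3c (-0.75 and -0.62) is low in both. Their non-cycling ratios rest on low levels, 5.91 and 5.66 CPM for Hist2h2ac and 4.47 and 2.64 CPM for Hist1h3c.

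The ratios of the 2 cell states stayed close. Over 2981 genes the ratio in members and that in non-cycling cells had a median absolute log2 difference of 0.08. The signs were opposite for 816 of the 2981 genes, with 0 of them at 1.5-fold or more in each state. The ratios differed by at least 1.5-fold for 13 genes (0.436%). Of these, 11 are genes tied to division, replication or repair, such as Hmmr, Kif22 and Pclaf; among these 11 Pclaf had the highest non-cycling level, 32.55 CPM in the control, and the others are Nr2f2 and Creb3l2. Nr2f2, the venous transcription factor, stood at 71.7 and 84.7 CPM in members (0.24) and at 98.5 and 74.8 in non-cycling cells (-0.40).

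Targets of microRNAs bear most directly on the labelled genotype, and 3 lists of known targets were read. The mature microRNAs, from RefSeq on GRCm38.p6, carry these seeds (bases 2 to 8, in capitals), which pair with the target.
let-7a-5p, chr13:48538239-48538260, minus strand: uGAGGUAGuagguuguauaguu
miR-126a-3p, chr2:26591402-26591423, plus strand: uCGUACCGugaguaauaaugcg
miR-17-5p, chr14:115043684-115043706, plus strand: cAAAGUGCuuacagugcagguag
Mature microRNAs were not measured here. Over all 8283 genes with a mean of at least 10 CPM the median log2 ratio was 0.03, and 1.0% were 1.5-fold higher and 0.519% lower. The 22 measured let-7 targets had a median log2 ratio of 0.09 in the members, with 2 at least 1.5-fold higher and 0 lower: Arid3a at 11.6 and 18.9 CPM (0.69, 0.29 to 1.13) and Thbs1 at 16.6 and 26.1 CPM (0.65, 0.31 to 1.01). Hmga2, a chromatin protein of fetal cells, stood at 65.5 and 86.0 CPM (0.39, 0.22 to 0.57), and Ccnd2 went the other way (-0.44). The 8 miR-126 targets had a median of 0.10 with 0 past 1.5-fold, and the 20 miR-17-92 targets 0.12 with Thbs1 higher and E2f2 (-0.61) lower. In the non-cycling capillary cells the 3 medians were 0.03, 0.08 and 0.07.

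Genes of the cycle itself hardly differed between the libraries. S-phase genes had a median of -0.12, G2/M genes -0.07, cyclins and CDKs 0.03, mitotic kinases -0.06 and kinetochore genes -0.09, with 0 of 50, 52, 13, 12 and 26 members past 1.5-fold. Between female-type cells these medians were -0.10, 0.03, 0.19, 0.02 and 0.02. Without cells holding markers of another cell type the S-phase median was -0.04. Of the 16 measured E2F, MYB and FOXM1 genes E2f2 was lower. Beside 1.0% of all genes higher, 0.519% lower and a median of 0.03, the p53 targets had a median of 0.22, with 3 of 12 higher, Btg2, Ccng1 (0.63) and Tnfrsf10b (0.82), while Cdkn1a had -0.04 and Mdm2 -0.21. The immediate early and dissociation list had 0.29, with 2 of 19 higher, Btg2 and Fosb (0.64), and both libraries were made from enzyme-digested tissue.

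Endothelial lists had medians of 0.07 to 0.24, beside 0.03 over all genes, of which 1.0% were 1.5-fold higher and 0.519% lower. Capillary genes had a median of 0.18, with 2 of 17 higher, Car4, a carbonic anhydrase (6.60 and 13.5 CPM, 1.01, 0.49 to 1.59) and Rbp7. Flow-responsive genes had 0.22 with 0 of 10 past 1.5-fold, Klf2 among them at 405 and 522 CPM (0.37). Arterial genes had 0.12 with Jag2 (0.61) higher, and basement membrane genes 0.10 with Lamb2 (0.71) higher. Venous genes had 0.24, VEGF and angiopoietin receptors 0.13, endothelial transcription factors 0.08 and junction genes 0.12, each with 0 past 1.5-fold. MicroRNA processing genes had 0.13 with 0 of 14 past it.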

How the data were processed

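Single-cell 3′ libraries of E17.5 mitral leaflets were used, 1 per genotype. The authors deposited raw UMI counts for every gene in every barcode, and the submitters' processing notes name Cell Ranger 5.0.0 and mm10; filters, options and annotation release are not given in the sources used here. Cells were chosen by the stated UMI rule in Python 3.11.15 (scipy 1.17.1, pandas 2.3.3), and no doublet was removed (scanpy 1.11.5 called them for an alternative). Counts were summed per cell group and library, scaled to CPM and compared as log2 ratios with 0.5 counts added; shares were also read after thinning. No p-value is given. Genes named are the 12 highest and 12 lowest library ratios at a mean of at least 50 CPM, the 15 highest and 10 lowest cycling ratios outside cycle, histone and rule genes, the markers, and extreme list members. A gene qualified if its larger CPM was at least its top level in the other cell groups divided by 5; erythroid, mitochondrial, ribosomal, sex-linked and unnamed genes were left out. Lists count members with a mean of at least 10 CPM. The members and lists were chosen with earlier results of these data known. Coordinates are from GENCODE M21, which held 32235 of 32285 gene identifiers. The ratio and its interval were tested on simulated data drawn with Poisson counting error only. This checks the calculation and says nothing of variation between cells or pools.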

Additional observations from a re-analysis of the deposited data

How the results depend on the processing

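No paired analysis was possible because each genotype has 1 library. Cycling shares moved with depth and the cut: at 4 or more UMIs of Mki67 and Top2a they were 22.8% and 29.5%, at 3000 UMIs per cell 26.3% and 27.5% (a gap of 1.24 points), and at 5000 UMIs 35.9% and 34.1%, where the gap turned to -1.79 points from 7.09. Female-type mutant cells alone stood at 31.6% and 37.75% at these 2 depths, above the control. Without cells holding at least 5 marker UMIs of another cell type, chosen after seeing the data, the mutant share was 36.8%. Genes 2-fold higher and lower between the libraries numbered 427 and 641 of 15176 with no level floor, and 0 and 0 at a mean of at least 200 CPM. Higher genes numbered 4 with the stricter barcode filter, 2 without called doublets, 0 at 4 cycling UMIs and 3 in female-type cells (Btg2, Rbp7 and Gmfg). The 4 lower genes in female-type cells were S100a8, S100a9, Hbb-bs and Ptn (-1.25, against -0.19 over all members). Without the cells with other markers Rsad2 was higher (1.47), and the lower genes were Igfbp5 (-1.41) and Apoe (-1.90). S100a8, S100a9 and Hbb-bs were not counted there, but the filter itself uses S100a8 and Hbb-bs. Without called doublets the second higher gene was Ttn (1.07), and the lower genes were Hbb-bs (-3.64) and Hba-a1 (-2.45). The Mki67 ratio was 0.10 in female-type cells, the opposite sign. In the contrast of members with non-cycling cells, 27 genes were higher and 0 lower at 200 CPM; lower genes numbered 13 without called doublets, 13 at 4 cycling UMIs and 14 without the cells with other markers. With 1 cut at a G2/M part of 0.5, S-led cells were 23.2% and 21.0% and G2/M-led cells 75.5% and 78.3%; at 4 cycling UMIs control cells were 1.87% and 64.2%, and at 3000 UMIs the mutant S-led share was 6.36%. Between female-type cells the list medians were 0.19 for cyclins and CDKs, 0.24 for tip cell genes, 0.25 for VEGF and angiopoietin receptors, -0.36 for microRNA host transcripts and 0.11 for spindle genes; 127 of 132 list medians under an alternative moved by less than the half-width of their members' median counting interval. That half-width is one of single genes, so it is wide for a median over many genes. Histone genes at -0.16 between female-type cells, against -0.31, and G2/M genes at 0.03, against -0.07, fell within it. Causes were not tested. Depth limits genes under 10 CPM and S-led cells, 38 and 36.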

Other observations

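Metabolic lists also lay close between the libraries: glycolysis and hypoxia genes had a median log2 ratio of 0.16 in the members (0 of 20 past 1.5-fold; 0.08 without cells holding markers of another cell type), oxidative phosphorylation -0.03 and nucleotide synthesis -0.01. In the contrast of members with non-cycling cells, 8 of 19 genes for nucleotide and one-carbon synthesis were at least 1.5-fold higher in both libraries. Over all 8301 genes 6.23% were higher and 1.95% lower. Rrm2, a subunit of ribonucleotide reductase, had 3.42 and 3.73 and Tk1 3.37 and 3.01, while Vegfa, in the glycolysis and hypoxia list, had -0.85 and -0.79. Edn1, which encodes endothelin 1, stood at 5.89 and 6.01 CPM in members against 16.7 and 22.5 in non-cycling cells.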
